A study of Mus musculus with 12 samples.

Results

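Complement RNA was followed in 8 genes: C1qa, C1qb and C1qc, which encode the chains of C1q, the central component C3, the alternative pathway genes Cfb and Cfp, and the receptor genes C3ar1 and C5ar1. They were chosen by gene symbol, and all 8 were found among the 24421 genes of both deposited count tables and passed the filter on low counts that left 12164 genes for testing. The series profiled polyA RNA from bone marrow-derived macrophages, which are grown in culture from marrow progenitors, of male C57BL/6J mice aged 8 weeks. Its title places the work in macrophage inflammation and atherosclerosis, with EHD1, a protein of endocytic recycling, as the subject. The 4 groups of 3 libraries were resting cells (M0) with a control siRNA (siControl), resting cells with an siRNA against Ehd1 (siEhd1), and cells treated with lipopolysaccharide (LPS, M1) with siControl or with siEhd1. All groups thus carried an siRNA, and the wild-type strain was the same in each. How much LPS was used, for how long, and which siRNA sequences were used are not stated in the labels.

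Complement is a cascade of plasma proteins that marks microbes and dying cells. C1q binds antibody or altered surfaces and starts the classical pathway. C3 is the component on which all pathways converge, and its cleavage leaves C3b on the target and frees C3a. Factor B, from Cfb, joins C3b to form the alternative pathway convertase, and properdin, from Cfp, stabilises that convertase. The receptors for C3a and C5a, from C3ar1 and C5ar1, are G protein-coupled receptors on myeloid cells. Most plasma complement comes from the liver, while macrophages are a known source of C1q and properdin and make C3 and factor B after microbial stimulation.

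Library totals ran from 18572725 to 22545272 counts, with 14119 to 14753 genes detected per library. Levels are given in CPM, counts scaled to library size with TMM factors, and errors are SD over 3 libraries unless named otherwise. Ehd1 itself was lower in all siEhd1 libraries than in all siControl libraries of the same state, at 59.2% of control in resting cells and 48.7% after LPS by edgeR's quasi-likelihood test (adjusted p = 5.7e-07 and 2.5e-08). With siControl, mean Ehd1 went from 53.2 CPM at rest to 619.7 CPM after LPS, an 11.6-fold rise. With siEhd1 it went from 31.5 to 301.8 CPM, a 9.58-fold rise (edgeR adjusted p = 7.6e-19 and 3.3e-18). The Ehd1 level remaining with siEhd1 was thus far higher after LPS, and its part in differences between states was not tested. All 10 macrophage markers on the fixed list were detected in every group. The summed level of that list did not overlap in resting cells, at 23425 to 24117 CPM with siControl and 19541 to 20946 CPM with siEhd1. Lyz2 made up most of that sum, at 14232 and 11312 CPM, while Adgre1 stood at 2013 and 2232 CPM. Of the 10 markers, 4 were called lower (Csf1r, Lyz2, Mertk, Fcgr1) and 1 higher (Mrc1). Summed neutrophil markers reached at most 4.94 CPM in any library, dendritic markers 1.72 CPM, lymphocyte markers 0.484 CPM and erythroid and mast cell markers 0.439 CPM. The stromal and endothelial list summed to between 53.2 and 209.0 CPM, led by Vwf (174.0 CPM in resting siControl cells and 33.5 CPM after LPS) and Kdr (24.3 and 23.7 CPM). Of its 11 genes, 5 reached 1 CPM in resting siControl cells. The endothelial genes Cdh5 and Tek stood at 0.146 and 0.0293 CPM there, and the stromal genes Pdgfra and Lum at 0. The siEhd1 and siControl ranges of the summed list in resting cells did not overlap (161.1 to 188.5 against 196.1 to 209.0 CPM). Hepatocyte markers summed to between 1.19 and 21.3 CPM. In resting cells that list ran from 2.59 to 3.82 CPM with siControl and from 2.26 to 21.3 CPM with siEhd1, with Apoa1 called higher (log2 2.43, SE 0.72, edgeR adjusted p = 0.024) and Alb not (1.49, SE 0.76, edgeR adjusted p = 0.19). Values are for bulk RNA, in which fewer cells of a type and less RNA per cell cannot be told apart. The part of these marker shifts in the complement results was not tested.

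In resting cells, siEhd1 went with lower C1qb, C1qc, C3, Cfb and C3ar1 and with higher Cfp. The largest of these changes were the fall of C3 to 61.1% of control and the 1.47-fold rise of Cfp. After LPS the siEhd1 effect on both was near 0, and the test of the difference between states passed for both. Between resting and LPS-treated siControl cells the C1q genes rose by up to 1.78-fold, Cfp 8.54-fold, C3 26.2-fold and Cfb 365.7-fold. The states were in separate tables with no batch label, so in all changes with LPS given here, LPS and handling cannot be told apart.

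**Figure D1:**
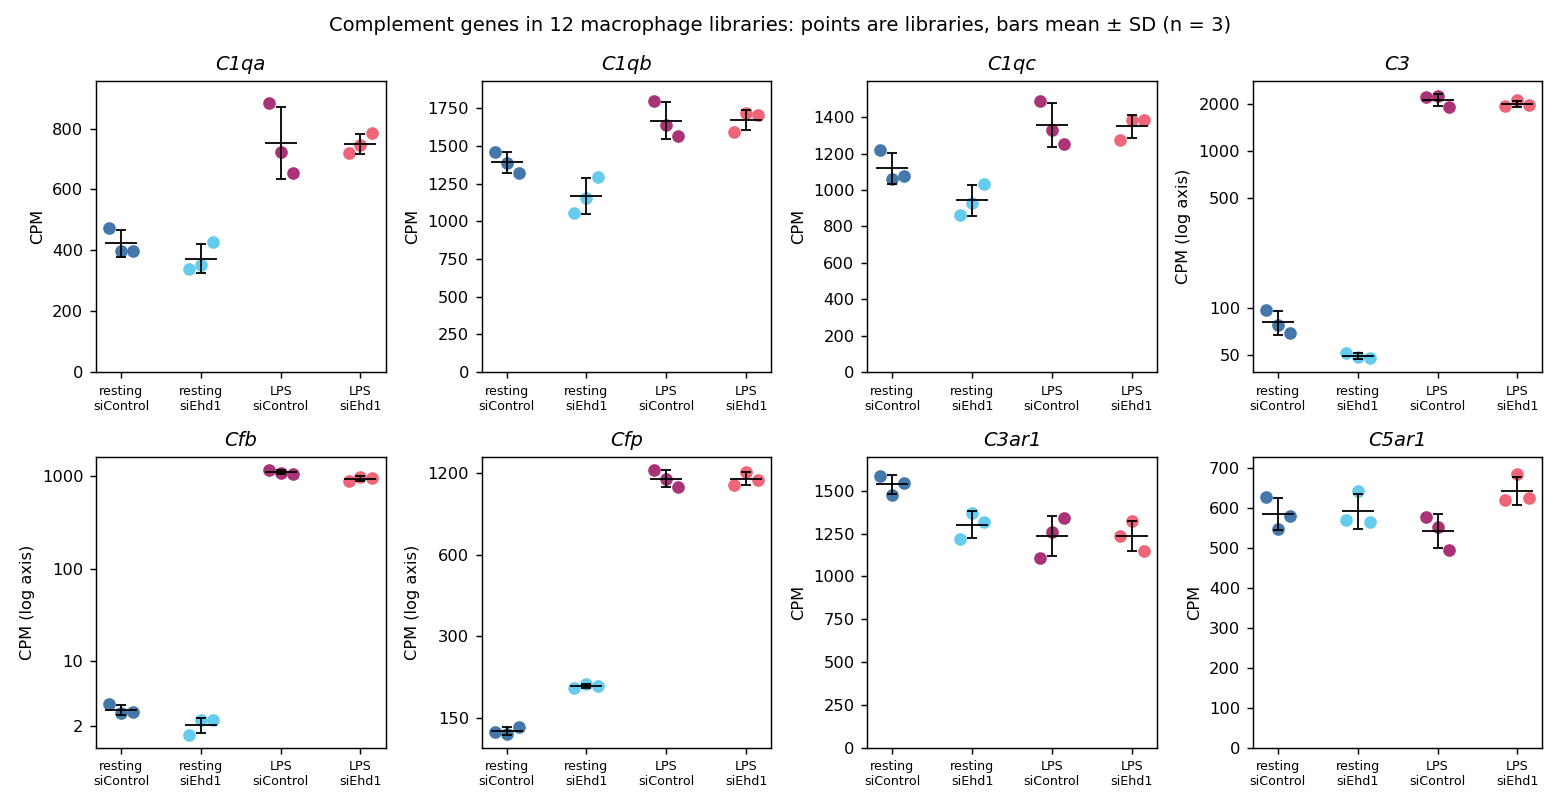
Level of each complement gene in every library, in CPM, by group; points are libraries and black bars are the mean with SD (n = 3). The axes of C3, Cfb and Cfp are logarithmic and the others start at 0; C3 and Cfp separate resting siControl from resting siEhd1 libraries, and C3, Cfb and Cfp stand far higher in all 6 LPS-treated libraries.

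The C1q genes lie side by side on the minus strand of chromosome 4 in GRCm38 (GENCODE M21). C1qb (ENSMUSG00000036905.8) spans chr4:136880129-136886187, C1qc (ENSMUSG00000036896.5) chr4:136889804-136893065 and C1qa (ENSMUSG00000036887.5) chr4:136895917-136898803. The gaps between them are 3616 bases (C1qb to C1qc) and 2851 bases (C1qc to C1qa). The RefSeq promoter table for GRCm38.p6 held 6 of the 8 genes (C1qb, C1qc, C3, Cfp, C3ar1 and C5ar1; C1qa and Cfb are the others). Because all 3 C1q genes were called higher with LPS under TMM scaling, the C1qb and C1qc stretches are shown, read 5′ to 3′ on the gene's strand. The C1qb stretch is chr4:136886201-136886400, the 200 bases before the start, and capitals mark a match to TGCTGA, the core bound by MAF family factors.
C1qb: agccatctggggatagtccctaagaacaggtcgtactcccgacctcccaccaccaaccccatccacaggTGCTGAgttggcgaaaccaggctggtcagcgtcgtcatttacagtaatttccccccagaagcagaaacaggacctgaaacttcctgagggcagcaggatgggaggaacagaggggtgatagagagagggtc
The C1qc stretch is chr4:136893066-136893141, bases 227 to 152 before the RefSeq start, the part that lies outside the GENCODE gene, less a CA repeat at its far end. Capitals mark a match on the opposite strand to GAGGAAGT, a sequence of the kind bound by the myeloid factor PU.1.
C1qc: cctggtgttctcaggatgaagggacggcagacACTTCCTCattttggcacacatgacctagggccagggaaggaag
Both strands of the 250 bases before each start were searched. TGCTGA occurred in 16.1% of 32851 promoters and GAGGAAGT in 2.44%, so the C1qb match is of a common sequence. C1qc also held 1 match to the NF-kB consensus, as did 3.90% of promoters. This match lies 41 to 32 bases before the RefSeq start but inside the GENCODE gene, so it is not in the stretch shown. A match describes the letters and not a bound factor.

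C1qb was the most abundant C1q transcript per length in all 4 groups. In resting cells it stood at 1463, 1389 and 1324 CPM in the siControl libraries and 1059, 1155 and 1298 CPM in the siEhd1 libraries, giving 1392 ± 69.6 and 1171 ± 120.4 CPM (SD, n = 3). The highest siEhd1 library lay just under the lowest siControl library. The fall was -0.25 on the log2 scale (SE 0.07, edgeR adjusted p = 0.013), to 84.1% of control. C1qc stood at 1219, 1061 and 1079 CPM with siControl and 865.3, 929.1 and 1036 CPM with siEhd1, also without overlap, and its log2 fold change was -0.25 (SE 0.08, edgeR adjusted p = 0.020). C1qa stood at 474.5, 396.3 and 397.6 CPM with siControl and 338.4, 352.4 and 427.6 CPM with siEhd1. One siEhd1 library of C1qa was above 2 of the siControl libraries, and the change did not pass the test (-0.18, SE 0.12, 95% interval -0.44 to 0.07, edgeR adjusted p = 0.28). The C1q calls rest on few libraries: without siControl replicate 1 or siEhd1 replicate 1 in resting cells, C1qb and C1qc were no longer called (adjusted p up to 0.10 and 0.12 over all alternatives), and C1qc was also lost without siEhd1 replicate 2.

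After LPS the C1q genes were called higher in siControl cells and the siRNA groups overlapped. C1qa reached 882.8, 721.8 and 654.0 CPM with siControl and 720.9, 745.3 and 786.2 CPM with siEhd1. That is a rise of 1.78-fold with siControl (log2 0.83, SE 0.12, edgeR adjusted p = 4.2e-05) and 2.01-fold with siEhd1 (1.01, SE 0.12, edgeR adjusted p = 7.9e-06). C1qb reached 1803, 1639 and 1566 CPM with siControl and 1596, 1719 and 1706 CPM with siEhd1. Its rise was 1.20-fold with siControl and 1.43-fold with siEhd1 (edgeR adjusted p = 0.0031 and 2.5e-06). C1qc reached 1491, 1331 and 1253 CPM and 1277, 1386 and 1385 CPM, a rise of 1.21-fold and 1.43-fold (edgeR adjusted p = 0.0030 and 5.7e-06). The siControl rises of C1qb and C1qc are small and depend on scaling. TMM factors were 1.048 to 1.094 in resting and 0.916 to 0.955 in LPS-treated libraries, which widens these rises. Over 19 alternatives both calls were kept, with log2 values down to 0.164 and 0.181 (adjusted p up to 0.048 and 0.039). Scaling by library totals alone was not tested. The siEhd1 effects after LPS were -0.004 for C1qa, 0.004 for C1qb and -0.01 for C1qc on the log2 scale, with 95% intervals of -0.26 to 0.25, -0.15 to 0.15 and -0.17 to 0.15.

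The makeup of C1q RNA differed between the states. Per length of transcript, C1qa made up 15.5% ± 0.63 of the summed C1q chains in resting siControl cells and 16.1% ± 0.54 with siEhd1. After LPS its share was 21.3% ± 1.25 with siControl and 21.3% ± 0.51 with siEhd1. The highest resting library had 16.7% and the lowest LPS-treated library 20.2%, so the states did not overlap. C1qb fell as a share from 48.9% ± 1.25 to 45.4% ± 1.03 in siControl cells, and C1qc from 35.5% ± 0.72 to 33.4% ± 0.22. The shares depend on the length used for C1qc, here 1203 bases for the longest coding transcript against 1931 over all annotated exons. These shares were given as descriptions and were not tested.

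C3 lies on chromosome 17 (ENSMUSG00000024164.15, chr17:57203970-57228136, minus strand). The stretch chr17:57228137-57228336, the 200 bases before the start, is shown because C3 changed in both contrasts. Capitals mark a match to TTGCNNAA, a C/EBP site, 45 to 38 bases before the start (9.56% of promoters hold one) and a match to TGCTGA on the opposite strand, 182 to 177 bases before it.
C3: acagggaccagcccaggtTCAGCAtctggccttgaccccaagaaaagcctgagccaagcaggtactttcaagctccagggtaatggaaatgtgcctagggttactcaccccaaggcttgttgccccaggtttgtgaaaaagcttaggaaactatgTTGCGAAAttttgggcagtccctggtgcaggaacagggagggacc
The interferon-stimulated response element (GAAA, any 2 bases, GAAA), found in 2.98% of promoters, and the NF-kB consensus did not occur in the 250 bases before C3. The Cfp window held none of the 5 motifs, and those of C3ar1 and C5ar1 each held only TGCTGA. The C5ar1 match, 17 to 12 bases before the RefSeq start, lies inside the GENCODE gene. The absence of a match says only that these letters are not in the window.

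C3 was the member with the largest siEhd1 effect in resting cells. It stood at 95.8, 77.0 and 68.8 CPM with siControl (2176, 1757 and 1568 counts) and at 51.6, 48.3 and 47.7 CPM with siEhd1 (1208, 1130 and 1121 counts). All siEhd1 libraries lay below all siControl libraries, and their spread was small, at ± 2.09 against ± 13.8 CPM. The log2 fold change was -0.71 (SE 0.10, edgeR adjusted p = 7.1e-05), which placed C3 as the 266th most lowered of 12164 genes. It was called under all 19 alternatives, at -0.81 to -0.57. The library with the highest hepatocyte marker sum was resting siEhd1 replicate 3, with Alb at 15.5 CPM. It had the lowest C3 and C5ar1 of its group and the highest C1qa, C1qb and C1qc. C3 ran only from 47.7 to 51.6 CPM in that group, and a relation to the hepatocyte markers was not tested.

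LPS brought C3 to 2205, 2225 and 1899 CPM with siControl and 1932, 2092 and 1958 CPM with siEhd1. The rise was 26.2-fold with siControl (log2 4.71, SE 0.11, edgeR adjusted p = 9.5e-16) and 40.5-fold with siEhd1 (5.34, SE 0.11, edgeR adjusted p = 3e-16). The siRNA groups overlapped after LPS, with a log2 difference of -0.08 (SE 0.09, 95% interval -0.28 to 0.11, edgeR adjusted p = 0.68). The siEhd1 effect on C3 differed between the states by 0.63 (SE 0.14, edgeR adjusted p = 0.011), a call kept under all 18 alternatives (adjusted p 0.00011 to 0.035). By mean CPM, C3 was 2488th of the tested genes in resting siControl cells and 42nd after LPS.

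Cfb and Cfp both serve the alternative pathway, and siEhd1 moved them in opposite directions in resting cells. Cfb (ENSMUSG00000090231.10) lies at chr17:34856374-34862518, minus strand. Only 85 bases separate it from C2, and GENCODE M21 has a transcript model, Gm20547, that overlaps both, so reads there could be assigned in more than 1 way. Cfp (ENSMUSG00000001128.7) lies on chromosome X at chrX:20925454-20931555, minus strand.

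Resting Cfb was low, at 3.43, 2.76 and 2.81 CPM with siControl (78, 63 and 64 counts) and 1.62, 2.31 and 2.30 CPM with siEhd1 (38, 54 and 54 counts). The groups did not overlap, and the log2 fold change was -0.53 (SE 0.16, edgeR adjusted p = 0.015), to 69.2% of control. With limma-voom, and without siControl replicate 1 or siEhd1 replicate 1 in resting cells, Cfb did not pass (adjusted p up to 0.10). LPS brought Cfb to 1166, 1074 and 1059 CPM with siControl and 882.8, 975.8 and 965.4 CPM with siEhd1. These groups did not overlap either, and Cfb stood at 85.6% of control (log2 -0.22, SE 0.06, edgeR adjusted p = 0.031). The LPS-state call was lost in 6 of 19 alternatives, among them a fit of only the 2 groups compared and those without LPS-treated siControl replicate 1 or 2 or siEhd1 replicate 1 or 3 (adjusted p 0.012 to 0.18). The siEhd1 effects on Cfb did not pass the test of their difference (0.31, SE 0.17, 95% interval -0.04 to 0.66, edgeR adjusted p = 0.34).

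The rise of Cfb with LPS was 365.7-fold with siControl (log2 8.51, SE 0.10, edgeR adjusted p = 1.8e-23) and 452.1-fold with siEhd1 (8.82, SE 0.10, edgeR adjusted p = 2.5e-23). It was the 21st largest rise among the 12164 genes with siControl. Per length, Cfb was at 0.0700 ± 0.0054 of the level of C3 in resting siControl cells. After LPS that ratio was 0.976 ± 0.071 with siControl and 0.882 ± 0.035 with siEhd1, so these partners of the alternative convertase stood at similar levels per length.

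Cfp was the 1 member higher with siEhd1 in resting cells. It stood at 132.9, 130.6 and 138.6 CPM with siControl and 192.6, 200.3 and 196.3 CPM with siEhd1, or 134.1 ± 4.14 and 196.4 ± 3.87 CPM. The groups were far apart against their spread, with a log2 fold change of 0.55 (SE 0.06, edgeR adjusted p = 1.2e-06). It was called under all 19 alternatives, at 0.53 to 0.58. After LPS, Cfp stood at 1232, 1139.8 and 1065 CPM with siControl and 1088, 1212 and 1129 CPM with siEhd1, with overlapping groups (log2 -0.003, SE 0.06, 95% interval -0.13 to 0.12, edgeR adjusted p = 0.98). The difference of the effects was -0.55 (SE 0.08, edgeR adjusted p = 0.00042) and was called under all 18 alternatives. LPS raised Cfp 8.54-fold with siControl and 5.82-fold with siEhd1 (log2 3.10 and 2.54, SE 0.06 each, edgeR adjusted p = 1.5e-19 and 2.3e-18).

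The receptor genes changed far less with LPS than the alternative pathway genes. C3ar1 (ENSMUSG00000040552.8) lies at chr6:122847138-122856161 and C5ar1 (ENSMUSG00000049130.6) at chr7:16246743-16259540, both on the minus strand. C3ar1 stood at 1589, 1476 and 1545 CPM in resting siControl libraries and 1217, 1371 and 1319 CPM in resting siEhd1 libraries. The groups did not overlap, and C3ar1 was at 84.8% of control (log2 -0.24, SE 0.07, edgeR adjusted p = 0.016), a call lost without siControl replicate 1 or siEhd1 replicate 1 (adjusted p up to 0.10). LPS-treated libraries had 1109.8, 1257 and 1342 CPM with siControl and 1238, 1322 and 1148 CPM with siEhd1. LPS lowered C3ar1 to 80.5% of the resting level with siControl (log2 -0.31, SE 0.07, edgeR adjusted p = 0.00061). With siEhd1, whose resting level was already lower, the LPS change was -0.08 (SE 0.07, 95% interval -0.22 to 0.07, edgeR adjusted p = 0.36). The test of the difference between these effects did not pass (0.24, SE 0.10, 95% interval 0.03 to 0.45, edgeR adjusted p = 0.19), so C3ar1 is not shown to respond differently to LPS with siEhd1.

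C5ar1 stood at 625.7, 547.2 and 578.2 CPM with siControl and 569.4, 641.7 and 563.3 CPM with siEhd1 in resting cells, with overlapping groups and a log2 difference of 0.02 (SE 0.07, 95% interval -0.13 to 0.16, edgeR adjusted p = 0.87). LPS-treated libraries had 577.6, 551.7 and 494.2 CPM with siControl and 619.2, 683.3 and 624.6 CPM with siEhd1. All LPS-treated siEhd1 libraries were above all siControl ones, and C5ar1 was 1.19-fold higher (log2 0.25, SE 0.07, edgeR adjusted p = 0.030). This difference did not pass in 6 of 19 alternatives, among them those without LPS-treated siControl replicate 2 or 3 or any 1 of the siEhd1 replicates (adjusted p 0.010 to 0.13). The LPS changes of C5ar1 did not pass the test, at -0.11 with siControl (SE 0.07, edgeR adjusted p = 0.17) and 0.12 with siEhd1 (SE 0.07, edgeR adjusted p = 0.14).

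**Figure D2:**
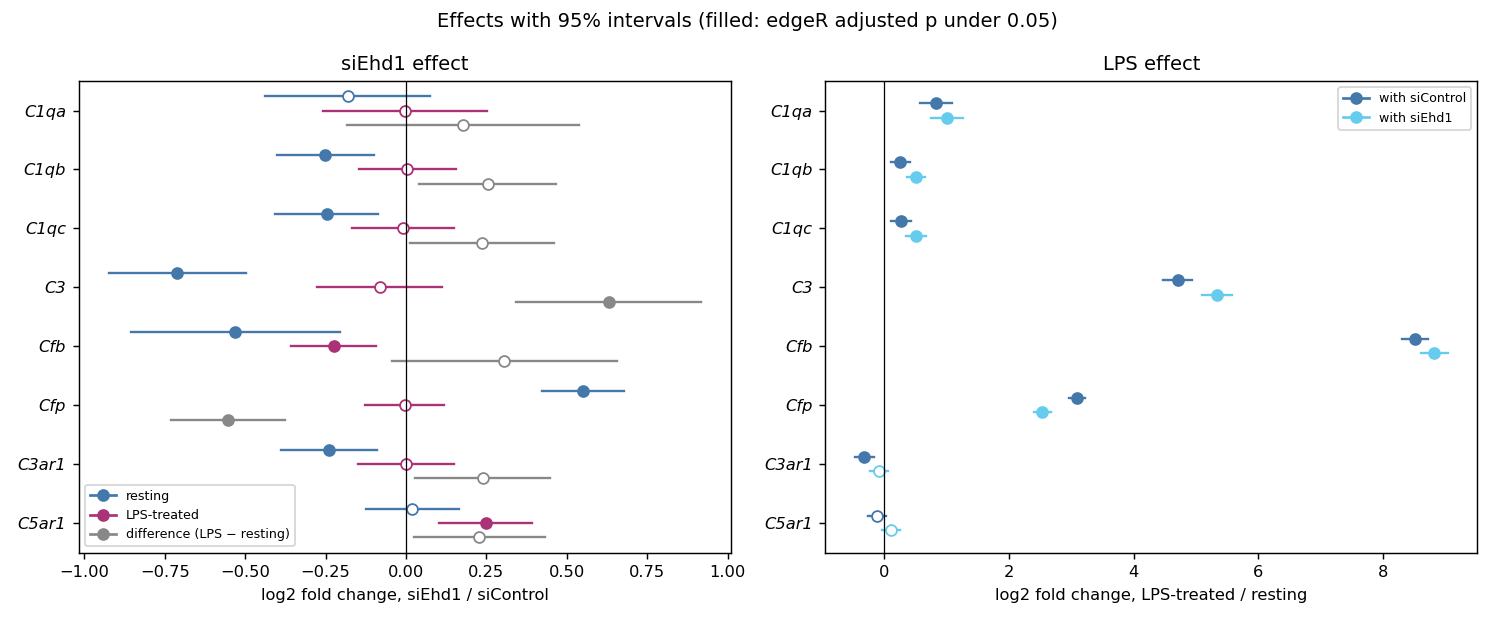
Log2 fold changes of the 8 genes with 95% intervals: siEhd1 relative to siControl in each state and the difference of these effects (left), and LPS-treated relative to resting cells with each siRNA (right). Filled points passed edgeR's adjusted p under 0.05; C3 at -0.71 and Cfp at 0.55 stand farthest from 0 with intervals away from 0 in resting cells, and both lie near 0 after LPS.

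Counted over the 8 genes, 6 were called with siEhd1 in resting cells (1 higher, 5 lower), where 28.2% of all tested genes were called. The groups did not overlap in those same 6 genes, nor in 44.1% of all tested genes. The median log2 fold change was -0.24 over the 8 genes and -0.02 over all tested genes. Without siControl replicate 1, or without siEhd1 replicate 1, in resting cells the count was 2 (C3 and Cfp), while the count over all tested genes went from 3432 to 2349 and 2466. Resting siControl replicate 1 had the highest level of its group in 7 of the 8 genes, all but Cfp, and resting siEhd1 replicate 1 the lowest of its group in 6, all but C3 and C5ar1.

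**Figure D3:**
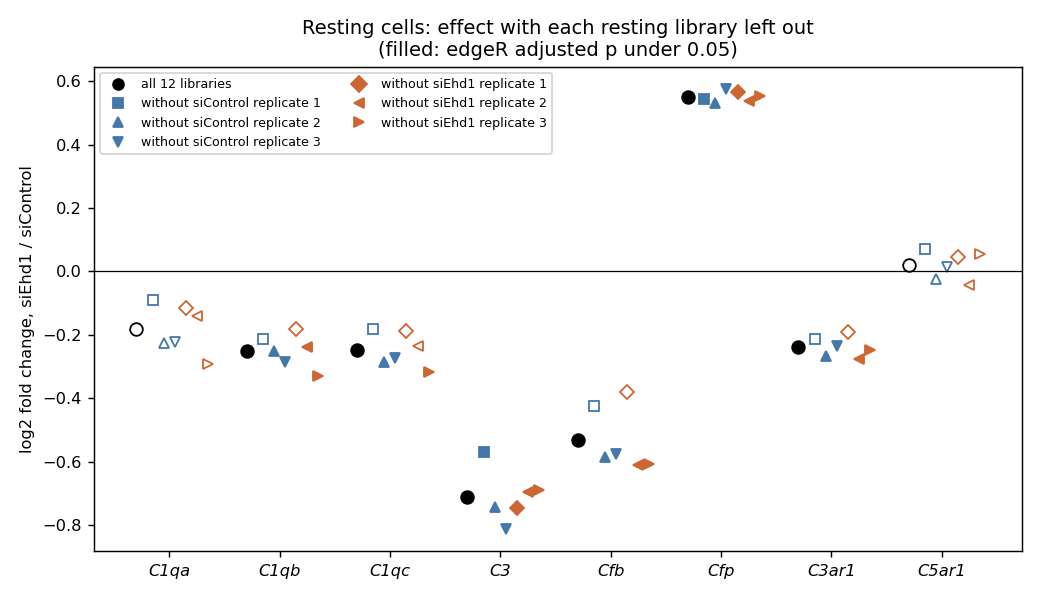
Log2 fold change of each gene with siEhd1 in resting cells, from all 12 libraries (black) and with each resting library left out; filled symbols passed edgeR's adjusted p under 0.05. C3 and Cfp are filled throughout, while C1qb, Cfb and C3ar1 are open when siControl replicate 1 or siEhd1 replicate 1 is left out, and C1qc also without siEhd1 replicate 2.

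In LPS-treated cells 2 of the 8 genes were called with siEhd1 (C5ar1 higher, Cfb lower), where 8.54% of all tested genes were called. This count ran from 0 to 2 when single libraries were left out. It was 0 without LPS-treated siControl replicate 2, siEhd1 replicate 1 or siEhd1 replicate 3, and 1 without siControl replicate 1 or 3 or siEhd1 replicate 2. The difference of the siEhd1 effects was called in 2 genes, C3 and Cfp, where 6.04% of all tested genes were called. For C1qb, C1qc, C3ar1 and C5ar1 the 95% interval of that difference lay above 0, at estimates from 0.23 to 0.25, but the adjusted p of 0.16 to 0.23 by edgeR did not pass.

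With LPS, 7 of the 8 genes were called in siControl cells (6 higher, 1 lower), where 68.8% of all tested genes were called. In siEhd1 cells 6 were called, all higher, where 67.0% of all tested genes were called. The median log2 fold changes of the 8 genes were 0.56 and 0.76, against -0.01 and -0.02 over all tested genes. The share of higher calls over all genes was 49.2% with siEhd1 and 38.4% with upper quartile scaling, which shifted the median of all genes by -0.11. Under that scaling C5ar1 with siControl (-0.21) and C3ar1 with siEhd1 (-0.18) were also called lower. The resting siEhd1 contrast and the siControl LPS contrast share the resting siControl libraries, so their values are given side by side and not as independent evidence. The 8 genes took 0.562% ± 0.032 of all counts in resting siControl cells, 0.502% ± 0.033 with siEhd1, and 0.921% ± 0.037 and 0.904% ± 0.029 after LPS.

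Levels were ordered between genes per kilobase of the longest coding transcript. In resting siControl cells the order was C1qb (1279.6 ± 64.0 CPM per kb), C1qc (930.6 ± 71.9), C1qa (406.6 ± 43.1), C3ar1 (356.9 ± 13.2), C5ar1 (229.8 ± 15.6), Cfp (81.9 ± 2.53), C3 (15.7 ± 2.69) and Cfb (1.09 ± 0.14). No neighbours in this order overlapped between libraries. Resting siEhd1 cells had the same order, again without overlap, with Cfp at 120.0 ± 2.37 and C3 at 9.58 ± 0.41 CPM per kb.

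After LPS the alternative pathway genes moved above the receptors in the order. In LPS-treated siControl cells C1qb (1534 ± 111.6 CPM per kb) and C1qc (1129 ± 101.0) led, followed by C1qa (723.9 ± 113.0) and Cfp (700.2 ± 51.1), whose libraries overlapped. C3 (410.8 ± 35.6) and Cfb (399.7 ± 21.1) came next and overlapped as well, then C3ar1 (287.2 ± 27.3) and C5ar1 (213.1 ± 16.8). With siEhd1 after LPS the order of means was the same, C1qa and Cfp again overlapped, and so did C3ar1 (287.1 ± 20.2) and C5ar1 (252.9 ± 14.0), while C3 (388.2 ± 16.7) and Cfb (342.2 ± 18.5) did not. C1qc depends on the length used: over all its annotated exons it would stand at 579.8 CPM per kb in resting siControl cells and 703.5 CPM per kb after LPS. The latter mean would lie below that of C1qa (723.9), so the order after LPS would change.

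**Figure D4:**
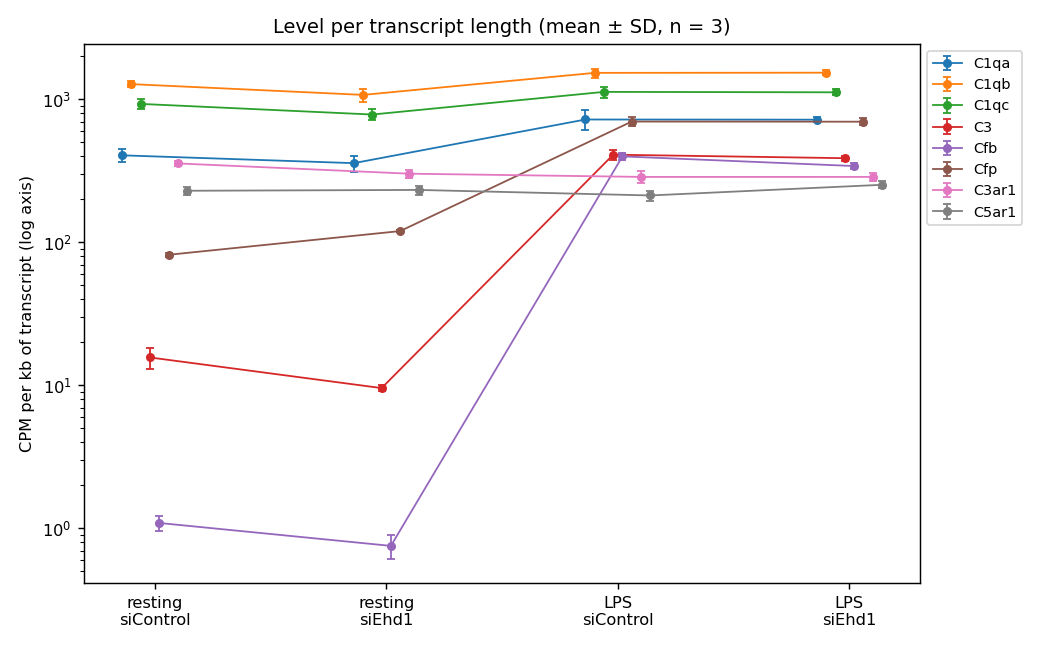
Mean level of each gene in CPM per kilobase of transcript (log axis) in the 4 groups, with SD over 3 libraries; lines join the means of 1 gene. C3 and Cfb lie lowest in resting cells (15.7 and 1.09 CPM per kb with siControl) and meet near 400 CPM per kb after LPS, while C3ar1 and C5ar1 stay within 213.1 to 356.9.

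The other complement genes came from a list of 46, of which 20 passed the filter. The remaining 26 had group means of at most 0.457 CPM (Clu) and included Hc, which encodes C5, Cfd, which encodes factor D, Cfi, Serping1, Vsig4 and Cr2. So the receptor gene C5ar1 was well detected while the gene for C5 itself was below the filter. All 7 classical pathway genes on the list passed, against 1 of 8 lectin, 0 of 1 alternative, 1 of 7 terminal, 5 of 15 regulator and 6 of 8 receptor genes. Of the classical genes, C1s1 and C1s2 passed through their LPS-treated libraries, with 4 summed counts each in resting siControl cells. C1s2 had at most 0.627 CPM and C4a at most 0.981 CPM in any group. Passing the filter thus does not show that the whole classical pathway is expressed. In resting cells 2 of the 20 rose with siEhd1 and 2 fell, with a median of -0.01, where 28.2% of all tested genes were called. C1s1, C1s2 and Cd55 had 4, 4 and 6 summed counts in resting siControl cells. A resting change could hardly have been called in them, so this count is not read as a low share. After LPS 2 rose and 0 fell, with a median of 0.12, near the 8.54% called over all tested genes.

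C1ra, which encodes the C1r protease of the C1 complex, moved in the same direction as C1qb in resting cells. It had 197, 171 and 171 counts in the siControl libraries and 100, 91 and 94 counts in the siEhd1 libraries (7.89 ± 0.68 CPM against 4.05 ± 0.20 CPM), a log2 fold change of -0.96 (SE 0.10, edgeR adjusted p = 1e-06). The groups were well apart. C1rb, a near-identical copy whose reads may be split with C1ra, had -0.79 (SE 0.22, edgeR adjusted p = 0.0091). After LPS, C1ra was at 90.4 ± 3.28 CPM with siControl against 81.3 ± 6.53 CPM with siEhd1, and the siEhd1 effects differed between states by 0.81 (SE 0.12, edgeR adjusted p = 0.00035). Cd59a, a regulator that blocks the membrane attack complex, rose in resting cells from 4.57 ± 0.053 CPM to 7.71 ± 0.55 CPM, a log2 fold change of 0.75 (SE 0.12, edgeR adjusted p = 7.3e-05). Itgb2, the shared beta chain of the iC3b receptors, was at 1333 ± 119.7 CPM with siControl against 1652 ± 122.1 CPM with siEhd1 and rose by 0.31 on the log2 scale (SE 0.07, edgeR adjusted p = 0.0027).

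After LPS, Cd93, a receptor once described as a C1q receptor, was at 334.3, 338.8 and 331.5 CPM with siControl and 427.9, 424.1 and 432.5 CPM with siEhd1, well separated (log2 0.35, SE 0.05, edgeR adjusted p = 0.00022). Its siEhd1 effects differed between states by 0.31 (SE 0.07, edgeR adjusted p = 0.015), a call lost without resting siEhd1 replicate 1 and with a replicate block (adjusted p up to 0.064 over all alternatives). With LPS, Cd93 fell from 653.6 to 334.9 CPM in siControl cells (log2 -0.96, edgeR adjusted p = 1.2e-12). Its fall with siEhd1 was smaller (log2 -0.65, edgeR adjusted p = 6.8e-10). Cd55, which speeds the decay of convertases, was at 5.55 ± 0.45 and 8.61 ± 0.40 CPM after LPS (0.63, SE 0.13, edgeR adjusted p = 0.0044).

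With LPS in siControl cells, 9 of the 20 rose and 6 fell, and in siEhd1 cells 8 rose and 8 fell, where 68.8% and 67.0% of all tested genes were called. Of the 7 classical pathway genes, C4a did not pass the test (log2 -0.33, SE 0.37, edgeR adjusted p = 0.44) and the others rose, among them C1ra by 3.52 and C1rb by 3.50 on the log2 scale, C2 by 1.67 and C4b by 1.35 (edgeR adjusted p = 2.9e-19, 2.2e-15, 5e-05 and 0.00011). C1s1 went from 4 summed counts in the 3 resting siControl libraries to 801 after LPS, C1s2 from 4 to 24 and Cd55 from 6 to 341. C1s1, C1s2 and Cd55 passed the filter on low counts only through their LPS-treated libraries, and C2 needed them too. A fall with LPS could hardly have been seen in these genes, which are among the 9 that rose, so their rises are descriptions. C2 and C4b nevertheless stayed low, at 1.64 ± 0.12 and 2.66 ± 0.58 CPM after LPS, and C1s2 and the C4 genes have near-identical copies. Itgam, the alpha chain of complement receptor CR3, rose from 1119.8 ± 93.7 to 3456 ± 259.9 CPM, while Itgax, that of CR4, fell from 357.8 to 95.2 CPM (log2 1.63 and -1.91, edgeR adjusted p = 3.1e-14 and 1.3e-05). C5ar2, the other C5a receptor, fell from 36.1 ± 1.84 to 8.20 ± 0.84 CPM (log2 -2.14, SE 0.11, edgeR adjusted p = 1.2e-12). Fcna, a lectin pathway ficolin, fell by 0.57 on the log2 scale (edgeR adjusted p = 1.1e-05). Among genes over 5 CPM with smaller changes, C1qbp stood at 32.0, 37.1, 28.6 and 26.1 CPM and Cr1l at 54.9, 57.7, 60.7 and 60.4 CPM in the order resting siControl, resting siEhd1, LPS siControl, LPS siEhd1. With LPS, C1qbp was called lower in siEhd1 cells (log2 -0.51, edgeR adjusted p = 2e-05) but not in siControl cells (-0.16, edgeR adjusted p = 0.086). Cr1l was called higher in siControl cells (0.14, edgeR adjusted p = 0.015) but not in siEhd1 cells (0.07, edgeR adjusted p = 0.25). That Cr1l call was lost with upper quartile factors and without resting siControl replicate 1.

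**Figure D5:**
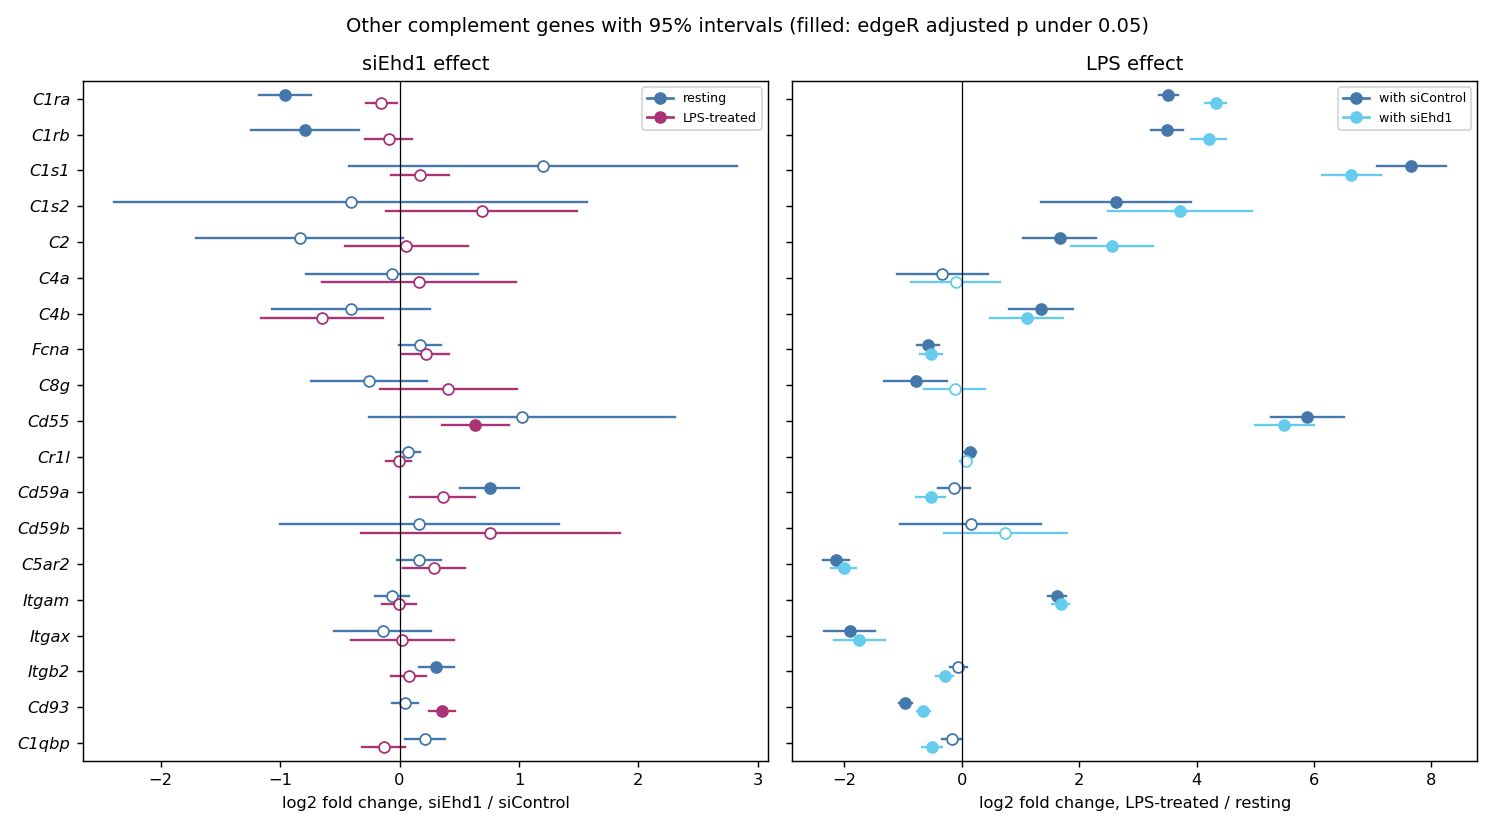
Log2 fold changes with 95% intervals of 19 of the 20 other complement genes that passed the filter, for siEhd1 relative to siControl in each state (left) and LPS-treated relative to resting cells with each siRNA (right); filled points passed edgeR's adjusted p under 0.05. In resting cells the filled points are C1ra, C1rb, Cd59a and Itgb2, and with LPS C1ra, C1rb and Itgam rise while C5ar2 and Itgax fall.

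Genes with a similar pattern over the 12 libraries were sought by Pearson correlation of log2 CPM among 12156 other tested genes, without a test. For C1qa they included Tmem176a (0.99) and Chst1 (0.98), for C1qb Adamtsl4 (0.98) and Lyz2 (0.96), and for C1qc Adamtsl4 (0.97) and Plxnb2 (0.97). For C3 they were Egln3, N4bp1 and Aoah, for Cfb Acp2, Pfkfb3 and Rab32, and for Cfp Pf4, Acsl5 and Gapdh, with correlations from 0.997 to 0.999. In these genes the gap between the resting and LPS-treated libraries sets most of the correlation. For C3ar1 they were Oplah (0.95), S1pr2 (0.94) and Slc12a2 (0.92), and for C5ar1, the gene with the smallest range, Man2b2 (0.90), Smarcc2 (0.90) and Sil1 (0.89).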

How the data were processed

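Unnormalized counts by gene symbol were deposited by the authors, with resting and LPS-treated libraries in separate tables. The submitters' processing notes name mm10 as the build, and R 4.4.2, DESeq2 1.46.0, featureCounts 2.20.0, STAR 2.7.6a, cutadapt, Trim Galore 0.6.3 and FastQC 0.10.1 as tools. No label states the annotation, the strand setting or how reads mapping to several genes were handled, so genes with near-identical copies are uncertain. Columns were matched through the library names in the labels.

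The tests used R 4.3.3 with edgeR 4.0.16 and limma 3.58.1 on the counts as deposited: filterByExpr by group (minimum count 10, minimum total 15), which left 12164 of 17270 genes with a count, TMM factors, and a robust quasi-likelihood fit of all 12 libraries with a mean for each group (8 residual degrees of freedom, common biological coefficient of variation 0.0588). Adjusted p-values are Benjamini-Hochberg over all tested genes, with a threshold of 0.05; SE is the absolute log2 fold change over the square root of F. The contrasts were siEhd1 in each state, their difference, and LPS with each siRNA. CPM uses TMM factors. The steps were tested on simulated data.

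Alternatives were other size factors, upper quartile factors, DESeq2 1.42.0, limma-voom, no filter, only the 2 groups compared, a replicate block and each library left out. The members and lists were chosen with earlier results of these data known. Named genes were the 8, Ehd1, other complement genes that passed the filter, and the 3 genes most correlated with each member; some of these are not reported here. The labels do not say whether replicates were separate cultures or animals, so the spread that p-values measure may be technical. States were in separate tables with no batch label, so handling and LPS cannot be told apart. No pair of libraries in a group was a duplicate (chi-square over its degrees of freedom, 2.99 to 23.6).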

Additional observations from a re-analysis of the deposited data

Results flagged for a closer look

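The effect of siEhd1 differed between resting and LPS-treated cells, by the edgeR test of the difference, in 4 of the complement genes examined (2 of the 8 and 2 of the 20 others tested), where 6.04% of all tested genes were called. The difference was 0.63 on the log2 scale for C3 (SE 0.14, adjusted p = 0.011), whose log2 fold change with siEhd1 was -0.71 in resting cells and -0.08 after LPS. It was -0.55 for Cfp (SE 0.08, adjusted p = 0.00042), at 0.55 and -0.003. Among the other complement genes it was 0.81 for C1ra (SE 0.12, adjusted p = 0.00035), at -0.96 and -0.15, and 0.31 for Cd93 (SE 0.07, adjusted p = 0.015), at 0.04 and 0.35. The Cd93 call was lost without resting siEhd1 replicate 1 and with the replicate block (adjusted p up to 0.064). In C3, Cfp and C1ra the resting effect was thus the larger, and in Cd93 the effect after LPS. The states also differed in the Ehd1 level remaining with siEhd1, at 31.5 CPM in resting cells and 301.8 CPM after LPS. Its part in these differences was not tested. Groups of 3 libraries are too small for a check of single outlying samples.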

How the results depend on the processing

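Calls of C3 and Cfp with siEhd1 in resting cells, and of their difference between states, held under every alternative run. Of the recomputed counts of calls, 13 changed by more than 1.5 times and 175 did not. The count of the 8 genes called in resting cells ran from 2 to 6 when single libraries were left out (2349 to 3725 over all tested genes), and in LPS-treated cells from 0 to 2, where it was 1 with only the 2 groups compared and 0 with the replicate block. All tested genes called in LPS-treated cells numbered 607 to 1100 without single libraries (lowest without LPS-treated siEhd1 replicate 1), and for the difference 453 to 783 (473 without resting siControl replicate 1, 453 without resting siEhd1 replicate 1). The cause was not tested.

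Signs turned only in values that were not called. In resting cells C5ar1 ran from -0.042 to 0.072 without single libraries. In LPS-treated cells C1qa was 0.0045 with RLE and with DESeq2, 0.0053 with upper quartile factors, 0.0066 with limma-voom, 0.0022 with only the 2 groups compared and 0.0064 with the replicate block, and ran from -0.091 to 0.13 without single libraries. C1qb ran from -0.035 to 0.063 and C1qc from -0.060 to 0.063. Cfp was 0.0058 with RLE and with DESeq2, 0.0055 with upper quartile factors and 0.0032 with only the 2 groups compared, and ran from -0.048 to 0.053. C3ar1 was 0.0083 with RLE and with DESeq2, 0.0071 with upper quartile factors, 0.0014 with limma-voom, 0.0058 with only the 2 groups compared and 0.0018 with the replicate block, and ran from -0.072 to 0.067.

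Same-numbered deviations of siControl and siEhd1 libraries correlated at -0.06, -0.14 and -0.17 in resting cells and at -0.04, 0.19 and 0.09 after LPS. In resting cells each siControl library correlated best with an siEhd1 library of another number (0.21, 0.21 and 0.27). After LPS only siControl replicate 2 correlated best with its own number. With 3 libraries in a group these values cannot exclude a pairing by replicate number. With the replicate block 2854 genes were called in resting cells, 750 after LPS, 519 for the difference, and 8261 and 8004 with LPS. Resting Cfb had 38 to 78 counts per library, so its siEhd1 effect is the least precise of the 8 (SE 0.16).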
